A study of Homo sapiens with 6 samples.

Results

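The genes described here encode the core of the transforming growth factor beta (TGF-beta) pathway: 2 ligands (TGFB1 and TGFB2), 2 receptors (TGFBR1 and TGFBR2), 3 signal-carrying SMAD proteins (SMAD2, SMAD3 and SMAD4) and 3 inhibitors (SMAD6, SMAD7 and BAMBI). The 10 genes were chosen by name, with earlier results of these data known, and each matched 1 row of the deposited table of 50868 genes. All 10 passed the filter on low counts, as did 15055 genes in all. RNA sequencing was performed on total RNA from Huh7, an established human hepatoma cell line kept in serum-containing medium. In 3 libraries (titled R-98181) the cells had received a plasmid that overexpresses hsa_circ_0098181, a circular RNA whose host gene is SOX5, and in 3 (R-NC) a control plasmid. Both were delivered by lipofection, and RNA was taken after 48 h. The cells were therefore transiently transfected cells of 1 line, and nothing states whether the 3 libraries of a group came from separate cultures, so p-values measure the spread between these samples, which may be technical.

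TGF-beta ligands are secreted in a latent form and, once released, bind the type II receptor TGFBR2, which then recruits and phosphorylates the type I receptor TGFBR1. TGFBR1 phosphorylates SMAD2 and SMAD3, which join SMAD4 and regulate genes in the nucleus. SMAD6, SMAD7 and the kinase-less pseudoreceptor BAMBI restrain the signal, and all are themselves induced by ligands of the family. In the liver the pathway is known for holding back hepatocyte growth, for driving stellate cells to make matrix, and, in carcinoma cells, for the loss of epithelial features.

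Library totals ran from 12261725 to 14138262 counts with overexpression and from 11130902 to 12211132 with the control plasmid, so the overexpression libraries were all deeper. SOX5 was higher in every overexpression library, with a log2 fold change of 5.88 ± 0.16 (SE, as after ± for every fold change here; edgeR adjusted p 2.6e-06). Its counts cannot part the plasmid's circle from the cells' own transcripts. All 8 hepatocyte markers had reads, and their summed expression was 31410 to 34140 CPM (counts scaled to the library's total) with overexpression and 30500 to 36310 CPM in controls. The 7 fibroblast markers summed to 23.0 to 26.4 against 23.5 to 26.0 CPM. The 4 endothelial markers summed to 54.3 to 55.5 against 46.8 to 59.1 CPM, with CDH5 at 0 in all 6 libraries. Nearly all of the endothelial sum was PECAM1, and VWF and KDR had at most 1 count in any library. The 5 leukocyte markers summed to 492 to 534 against 439 to 476 CPM, with no overlap between groups, as for 12.9% of all tested genes. Nearly all of that sum was LYZ, the lysozyme gene (479 to 520 against 424 to 464 CPM). LYZ was not called (log2 fold change 0.15, edgeR adjusted p 0.797). The part of these markers in any result was not tested. Control replicate 1 had 9.29% of its counts on mitochondrial genes, against 6.32% to 7.04% in the other libraries. In bulk RNA a lower level cannot be assigned to fewer expressing cells or to less RNA per cell.

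No gene of the core pathway was called higher or lower with overexpression. edgeR's quasi-likelihood test gave 0 of 10 at an adjusted p under 0.05, where 0.0399% of all 15055 genes were called, and DESeq2 and limma gave 0 of 10 as well. At an unadjusted p under 0.05 there were also 0 of 10, against 5.5% of all genes. For none of the 10 did the 3 values of one group lie wholly above or below the 3 of the other, a pattern that 12.9% of all genes showed. The median log2 fold change over the 10 was 0.025, beside 0.0023 over all genes tested, with 7 genes higher and 3 lower, and it turned to -0.053 without control replicate 1 and to -0.0021 without overexpression replicate 3. Fold changes ran from -0.32 for TGFB2 to 0.11 for SMAD6 on the log2 scale. The smallest adjusted p among the 10 was 0.797.

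**Figure D1:**
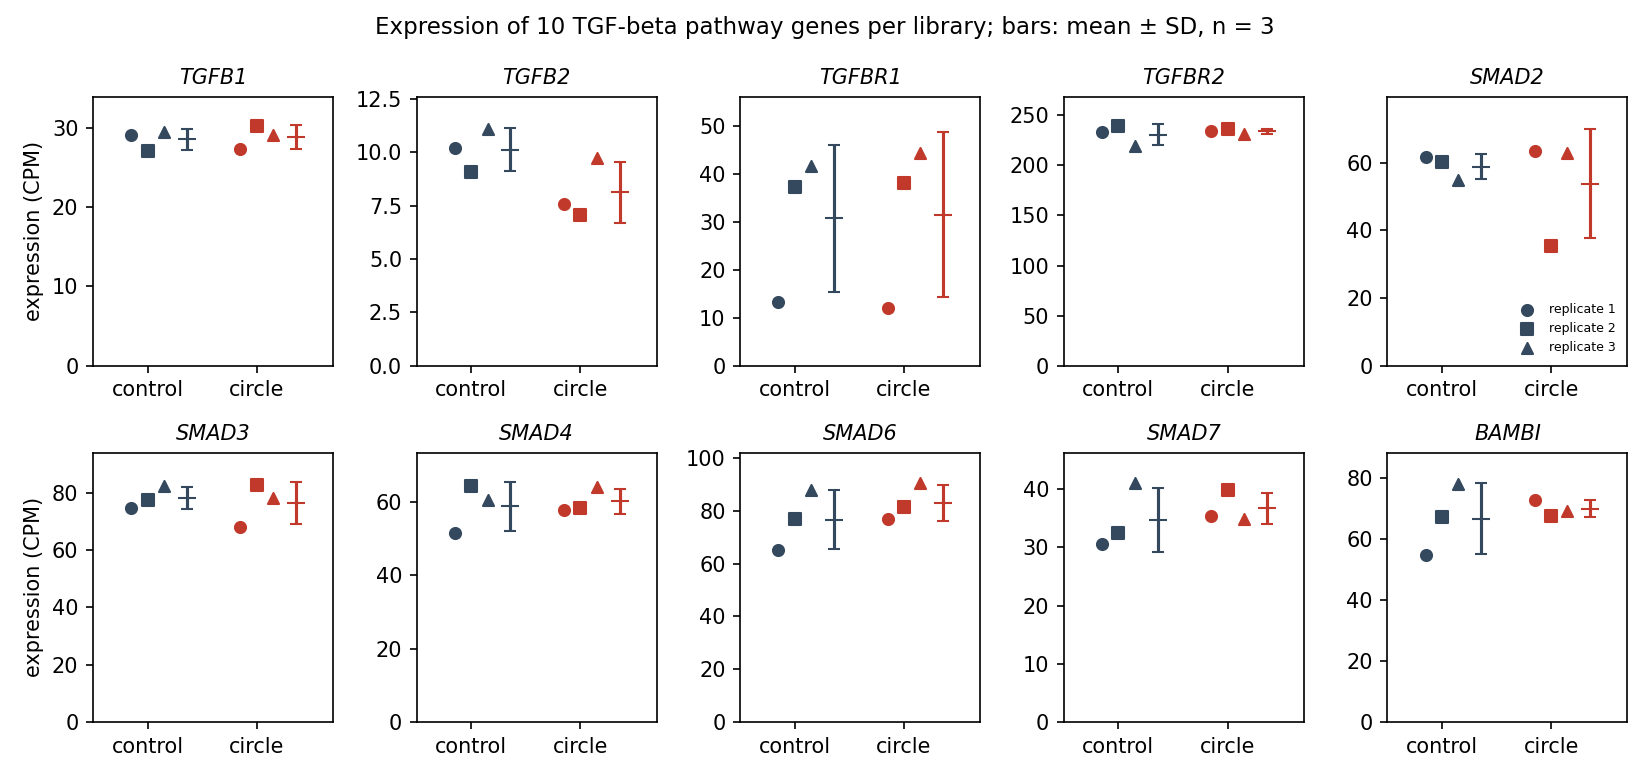
Expression in CPM (vertical axes, from 0) of the 10 genes in each library, with circles, squares and triangles for replicates 1, 2 and 3, and bars for the mean ± SD (n = 3). Control libraries are dark and overexpression libraries ("circle") are red. TGFBR1 is low in replicate 1 of both groups, SMAD2 is low in overexpression replicate 2, and the groups overlap for every gene.

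The ligand TGFB1, the form made most widely by adult tissues, was steady. The 3 overexpression libraries, in the order of their replicate numbers, held 27.3, 30.3 and 29.1 CPM, and the controls 29.1, 27.0 and 29.5 CPM. The groups lay on top of each other. Group means were 28.9 ± 1.51 against 28.5 ± 1.32 CPM (SD, n = 3), and the log2 fold change was 0.017 ± 0.10 (edgeR adjusted p 0.978), with a 95% interval of the fold from 0.860 to 1.19. TGFB1 (ENSG00000105329, chr19:41301587-41353911, minus strand) is overlapped on the other strand by HNRNPUL1, with 28809 counts over the 6 libraries, and by CCDC97, with 4844, against 2165 for TGFB1. Whether counting used the strand is not given in the sources used here, so its level is uncertain.

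TGFB2, the second ligand, was the member with the largest fold change and the fewest reads, 99 to 135 counts per library. It was measured at 7.56, 7.05 and 9.76 CPM with overexpression and at 10.2, 9.09 and 11.1 CPM in controls. Overexpression replicates 1 and 2 lay under all controls, while replicate 3 lay among them. The means were 8.12 ± 1.44 and 10.1 ± 1.000 CPM (SD, n = 3), and the log2 fold change was -0.32 ± 0.18 (edgeR unadjusted p 0.108, adjusted p 0.797). An exact two-sided permutation test gave p = 0.2, and 0.1 is the smallest that 3 against 3 values allow. TGFB2 (ENSG00000092969, chr1:218346235-218444619, plus strand) shares its 3′ end with TGFB2-OT1, an annotated noncoding transcript of the same strand. TGFB2-OT1 had 58, 2 and 2 counts with overexpression and 4, 3 and 10 in controls, so 58 of its 79 counts came from a single library, overexpression replicate 1. When both were counted as 1 gene, a step chosen after the data were seen, the log2 fold change of TGFB2 was -0.15.

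The receptor TGFBR2 had the highest level per length of the 10 genes and the smallest spread among the overexpression libraries. It was at 234, 237 and 231 CPM with overexpression and at 234, 239 and 219 CPM in controls. Its highest overexpression library was 1.02 times its lowest, a ratio below which lay only 1.41% of all tested genes. Overexpression left it at a log2 fold change of 0.021 ± 0.078 (edgeR adjusted p 0.964), and the 95% interval of the fold ran from 0.896 to 1.15. TGFBR2 (ENSG00000163513) lies at chr3:30606502-30694142 on the plus strand.

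TGFBR1, the signalling kinase of the receptor pair, showed a pattern of the opposite kind. It was at 11.9, 38.2 and 44.4 CPM with overexpression and at 13.3, 37.2 and 41.7 CPM in controls. The first library of each group stood far below the other 4 libraries, and the groups overlapped. The highest value was 3.71 times the lowest with overexpression and 3.15 times in controls, ratios above those of 98.3% and 96.8% of all tested genes. In counts these libraries had 169 and 144 reads of TGFBR1 against 438 to 550 in the other 4. In a lookup made after this pattern was seen, 15 of 15055 genes (0.0996%) had both first libraries under 0.5 times every other library. TGFBR1 was the only one of the 10 members among them. The same rule found 3 genes for replicate 2 and 9 for replicate 3.

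With that spread the group comparison of TGFBR1 was imprecise. Its log2 fold change was 0.029 ± 0.51 (edgeR adjusted p 0.993), and the 95% interval of the fold ran from 0.455 to 2.29. Leaving out a first library moved the log2 fold change to 0.42 (without overexpression replicate 1) or to -0.33 (without control replicate 1), neither past the threshold. Without both first libraries, a fit added once the data had been seen, it was 0.064 ± 0.12. The CPM ratio of TGFBR2 to TGFBR1 was 19.6, 6.20 and 5.22 with overexpression and 17.6, 6.42 and 5.26 in controls. These ratios compare counts and are not per length. TGFBR1 (ENSG00000106799) lies at chr9:99104038-99154192 on the plus strand. The mitochondrial share was raised in control replicate 1 and not in overexpression replicate 1 (7.04%), and its part in the TGFBR1 values was not tested.

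**Figure D2:**
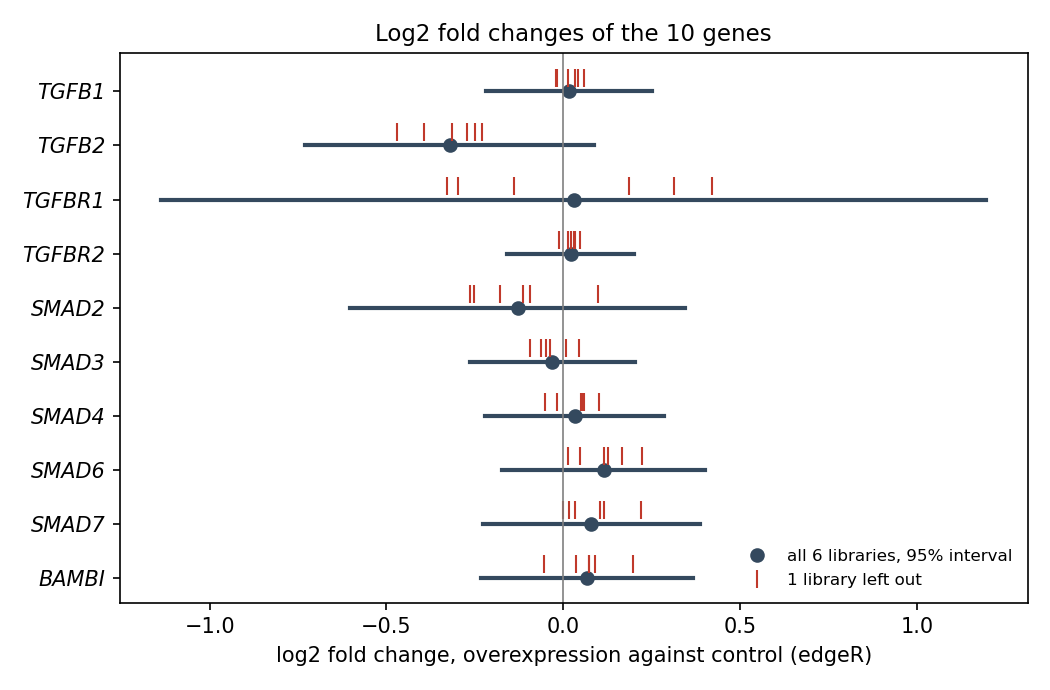
Log2 fold changes (horizontal axis, overexpression against control, edgeR) of the 10 genes with their 95% intervals, and red marks for the fits that each left out 1 library. All intervals cross 0, that of TGFBR1 is the widest (-1.14 to 1.20) and that of TGFBR2 the narrowest (-0.16 to 0.20).

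The receptor-activated SMADs, which carry the signal into the nucleus, did not pass the test. SMAD3 was at 68.3, 82.7 and 78.4 CPM with overexpression and at 74.6, 77.4 and 82.3 CPM in controls, and its log2 fold change was -0.031 ± 0.10 (edgeR adjusted p 0.954). Both its lowest and its highest value belonged to overexpression libraries. SMAD2 was at 63.4, 35.3 and 62.7 CPM with overexpression and at 61.5, 60.2 and 54.8 CPM in controls. Overexpression replicate 2 stood alone below the other 5 libraries, and the other overexpression libraries lay above all controls. The log2 fold change of SMAD2 was -0.13 ± 0.21 (edgeR adjusted p 0.901), and without overexpression replicate 2 it was 0.099. In that library the CPM ratio of SMAD3 to SMAD2 was 2.35, higher than in any of the other 5. This ratio compares counts and is not per length. SMAD4, the common partner, was at 57.9, 58.5 and 64.3 CPM with overexpression and at 51.6, 64.4 and 60.6 CPM in controls (log2 fold change 0.032 ± 0.11, edgeR adjusted p 0.96).

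The study links the circle to the microRNA miR-18a-3p, so the members were searched for sites of this microRNA. The mature sequence (RefSeq, GRCh38.p14) is shown with its seed, bases 2 to 8, in capitals, and the sites with the 7 bases complementary to the seed in capitals, 5′ to 3′.
hsa-miR-18a-3p: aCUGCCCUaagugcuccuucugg
SMAD3, first site: atggtaggggAGGGCAGgcttgggg
SMAD3, second site: agaggaaaccAGGGCAGttctagag
SMAD2: gccacctttgAGGGCAGggaggctt
The heptamer AGGGCAG was looked for on the transcript strand only, in the 3′ UTR of the coding transcript with the longest coding sequence (GENCODE 29, GRCh38). SMAD3 held it at chr15:67190558-67190564 and chr15:67193214-67193220 (ENST00000327367.8, plus strand), and SMAD2 at chr18:47824001-47824007 (ENST00000262160.10, minus strand). The other 8 members held none in these 3′ UTRs. Among the 12483 tested coding genes with a 3′ UTR, 16.5% held the heptamer, so 2 of 10 is near the share of all genes. The 3′ UTR of SMAD2 is 32870 bases long and that of SMAD3 4659, against a median of 998 over all these genes, and longer sequences hold a given heptamer more often. SMAD3 and SMAD2, the members with a site, had log2 fold changes of -0.031 and -0.13, neither past the threshold. A match of letters does not show binding.

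None of the 3 inhibitors passed the test either. SMAD6, which mainly opposes BMP signals, was at 77.0, 81.6 and 90.6 CPM with overexpression and at 65.4, 76.8 and 87.9 CPM in controls. SMAD7, which acts at the TGF-beta receptor, was at 35.4, 39.8 and 34.9 CPM with overexpression and at 30.7, 32.5 and 41.1 CPM in controls. BAMBI was at 72.9, 67.5 and 69.3 CPM with overexpression and at 54.8, 67.2 and 78.0 CPM in controls. In all 3 genes control replicate 1 was the lowest of the 6 libraries, control replicate 3 was at or near the top, and the overexpression libraries lay between or close to them.

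The log2 fold changes of the inhibitors were all small and positive: 0.11 ± 0.13 for SMAD6 (edgeR adjusted p 0.855), 0.079 ± 0.13 for SMAD7 (0.907) and 0.067 ± 0.13 for BAMBI (0.92). Without control replicate 1, the library with the raised mitochondrial share, they were 0.013, -0.00051 and -0.054, so their sign or size rested on that library. Without control replicate 3 they were 0.22, 0.22 and 0.20, also not past the threshold. The part of the mitochondrial share in these values was not tested. The CPM ratio of the inhibitory SMADs (SMAD6 and SMAD7) to the signalling SMADs (SMAD2, SMAD3 and SMAD4) was 0.593, 0.688 and 0.611 with overexpression and 0.512, 0.541 and 0.652 in controls. The value of 0.688 was that of overexpression replicate 2, in which SMAD2 was low at 35.3 CPM. The ratio of SMAD6 to SMAD7 stayed between 2.05 and 2.60 in all 6 libraries. Both ratios compare counts and are not per length.

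The promoter of SMAD6 is shown because it was the only one of 25 annotated promoters of the 10 members to hold GTCTAGAC, the palindromic SMAD binding element, which reads the same on both strands and is set in capitals. The window covers 250 bases before to 50 after the start site at chr15:66701986-66702285 (RefSeq, GRCh38.p14, plus strand), and the element begins 12 bases upstream of that start.
SMAD6: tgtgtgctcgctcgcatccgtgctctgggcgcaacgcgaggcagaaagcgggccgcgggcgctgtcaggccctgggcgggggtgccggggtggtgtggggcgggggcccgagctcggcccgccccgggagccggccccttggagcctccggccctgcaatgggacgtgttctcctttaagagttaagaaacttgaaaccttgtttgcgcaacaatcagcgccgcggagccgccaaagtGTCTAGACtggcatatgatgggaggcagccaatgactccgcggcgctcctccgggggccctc
Of all 35116 promoters of this length, 71 (0.202%) held the element. The match is a description of the sequence, and SMAD6, with a log2 fold change of 0.11, did not pass the test. SMAD6 (ENSG00000137834) lies at chr15:66702228-66782848 and SMAD3 (ENSG00000166949) at chr15:67063763-67195195, both on the plus strand. SMAD2 (ENSG00000175387, chr18:47808957-47931146, minus strand), SMAD7 (ENSG00000101665, chr18:48919853-48950711, minus strand) and SMAD4 (ENSG00000141646, chr18:51028394-51085045, plus strand) share a chromosome, and BAMBI (ENSG00000095739) lies at chr10:28677342-28682939 on the plus strand.

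The CPM ratios given above compare counts, and levels were ranked between the genes per length, as CPM per kilobase of merged exons (GENCODE 29). TGFBR2 had the highest level, 49.0 ± 2.17 in controls (SD, n = 3), followed by BAMBI with 28.8 ± 5.02, and the 6 libraries of each did not overlap with those of the next gene. SMAD6 (8.96 ± 1.31), TGFB1 (8.82 ± 0.409), SMAD3 (8.57 ± 0.427) and SMAD7 (6.90 ± 1.10) followed, and each overlapped with its neighbour in this order. TGFBR1 (4.49 ± 2.24) and SMAD4 (4.49 ± 0.503) could not be ranked either. TGFB2 (1.97 ± 0.194) and SMAD2 (1.62 ± 0.0982) overlapped with each other and lay under SMAD4 in all libraries. BAMBI, the pseudoreceptor, stood above TGFBR1 and every SMAD in all libraries. The value of SMAD2 depends on its annotated length of 36366 bases, most of it a single long 3′ UTR. In the deposited FPKM the order of the 10 was the same but for TGFB1 above SMAD6 and SMAD4 above TGFBR1, with TGFBR2 at a mean of 29.8 FPKM and SMAD2 at 0.968 FPKM over the 6 libraries.

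**Figure D3:**
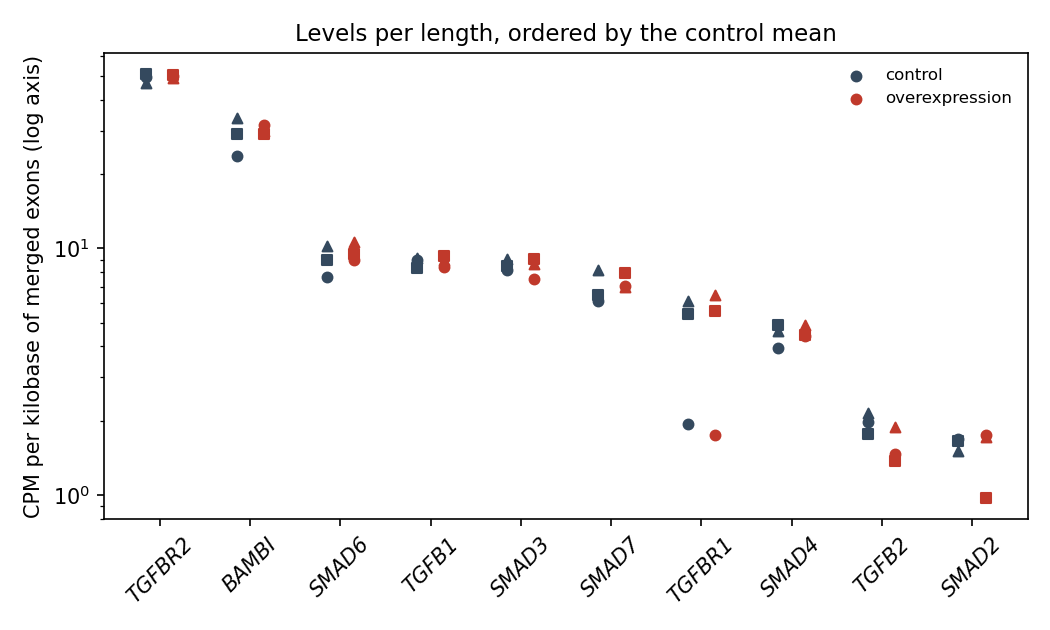
Level per length (CPM per kilobase of merged exons, log axis) of the 10 genes in the 6 libraries, ordered by the control mean, with circles, squares and triangles for replicates 1, 2 and 3. TGFBR2 and BAMBI stand above the other genes in every library, and the low pair of TGFBR1 values belongs to replicate 1 of both groups.

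The genes around the core were examined through 6 lists, chosen with earlier results of these data known. Some genes belong to several lists and are counted in each. In these lists edgeR, DESeq2 and limma called 0 of the genes each could test. Over all 15055 genes, 7601 were higher and 7454 lower, 5.5% had an unadjusted p under 0.05 and 12.9% did not overlap between groups. Among genes that make, store or release TGF-beta, 9 of 11 were tested, 0 at an unadjusted p under 0.05, with a median log2 fold change of -0.11, 3 higher and 6 lower. Without control replicate 3 that median was -0.022, with 4 higher and 5 lower, and without overexpression replicate 1 it was -0.14, with 0 higher and 9 lower. The smallest p values belonged to ITGAV (log2 fold change -0.20) and ITGB8 (-0.59), subunits of integrins that release the latent ligand, and THBS1 (-0.36), a matrix protein that can do so. Each had an edgeR adjusted p of 0.797, and ITGB8 had only 11 to 28 counts per library. THBS1 was at 109 CPM in control replicate 3 and at 49.3 to 67.4 CPM in the other 5 libraries, and is also in the list of TGF-beta targets.

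Among the other ligands of the family and their secreted antagonists, 11 of 21 were tested, and the median was 0.037, with 7 higher and 4 lower. Of the fits that left out 1 library, only the one without overexpression replicate 1 turned it below 0 (-0.010, 5 higher, 6 lower). It was 0.0055 without control replicate 1 (6 higher, 5 lower) and 0.16 without control replicate 3 (8 higher, 3 lower). Without both first libraries it was -0.085, with 5 higher and 6 lower. The antagonists CHRD and GREM1, which trap BMPs outside the cell, had unadjusted p values of 0.0328 and 0.0405 and edgeR adjusted p values of 0.797. CHRD was at 7.21, 5.91 and 7.10 CPM with overexpression and at 4.97, 4.76 and 2.14 CPM in controls (log2 fold change 0.77 ± 0.30), with no overlap between groups. GREM1, with 7 to 31 counts per library, was at 1.77 to 2.21 against 0.575 to 1.45 CPM (log2 fold change 0.86 ± 0.35). Without control replicate 3 the values were 0.47 and 0.54. GDF15, a stress-induced ligand, had a log2 fold change of -0.27 (edgeR adjusted p 0.797), with 142 CPM in control replicate 3 against 80.2 to 103 CPM elsewhere. The 10 genes not tested included BMP6, INHBA and NOG, each with at most 13 counts in any library, and BMP7 had 0 in all.

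For the other receptors, 9 of 11 were tested and the median was -0.19, with 2 higher and 7 lower. BMPR2, the type II receptor for BMPs, was the only one at an unadjusted p under 0.05 (0.0464), at 57.2, 57.7 and 62.4 CPM with overexpression and 80.9, 67.2 and 64.2 CPM in controls (log2 fold change -0.26, edgeR adjusted p 0.797). Its highest value was in control replicate 1, and without that library its log2 fold change was -0.15. ACVR2A (0.16) and BMPR1A (-0.12), an activin and a BMP receptor, were next, with edgeR adjusted p values of 0.797 and 0.798. Single libraries moved the median of this list: it was -0.053 when control replicate 1 was left out, -0.081 without overexpression replicate 1, -0.11 without overexpression replicate 3, -0.12 without control replicate 2 and -0.25 without control replicate 3. Without both first libraries it was 0.0024, with 5 higher and 4 lower. ENG and ACVRL1, the receptor genes typical of endothelium, had at most 5 counts in any library and were not tested.

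Of 26 regulators of SMADs, 25 were tested, with a median of -0.093, 9 higher and 16 lower, and 4 of the lower ones had an unadjusted p under 0.05, against 5.5% of all genes. These were RNF111 (log2 fold change -0.35), whose product marks SMAD inhibitors for degradation, the ubiquitin ligases WWP2 (-0.26) and SMURF2 (-0.38), and EP300 (-0.42), a coactivator that is named after its value was seen. All 4 had an edgeR adjusted p of 0.797, and their groups did not overlap, as for 12.9% of all genes. Without control replicate 1 the log2 fold change of WWP2 was -0.16, and without overexpression replicate 1 that of EP300 was -0.26. RNF111 was at 29.5, 30.4 and 28.3 CPM with overexpression and at 40.1, 33.8 and 38.9 CPM in controls. EP300 was highest in control replicate 1, at 211 CPM, and lowest in overexpression replicate 1, at 102 CPM. Without control replicate 1 the median of the list was -0.035, with 1 gene at an unadjusted p under 0.05, without overexpression replicate 2 it was -0.059, and without overexpression replicate 3 it was -0.17.

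None of the genes that TGF-beta is known to raise was called, and most had fold changes below 0. Of 30 listed, 24 were tested, and 5 were higher and 19 lower, with a median log2 fold change of -0.16 beside 0.0023 over all genes. Because the list was chosen with earlier results of these data known, this tally is a description only. VIM, the mesenchymal intermediate filament, was at 29.3, 32.3 and 29.1 CPM with overexpression and at 40.9, 39.4 and 60.5 CPM in controls (log2 fold change -0.63 ± 0.17, edgeR unadjusted p 0.00548, adjusted p 0.797). FN1, fibronectin, was at 4603, 5618 and 5237 CPM against 7328, 5982 and 5651 CPM (log2 fold change -0.29 ± 0.12, edgeR adjusted p 0.797). Without control replicate 1, the library with the raised mitochondrial share, FN1 was at -0.17, and the part of that share was not tested. Neither VIM nor FN1 overlapped between groups, a pattern of 12.9% of all genes. In all, 3 of the 24 genes, VIM and FN1 among them, had an unadjusted p under 0.05, against 5.5% of all genes.

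The median of the target genes moved most without control replicate 3, to -0.080, with 8 higher and 16 lower, and VIM was at -0.41. Without both first libraries it was -0.18, with 2 higher and 22 lower. Matrix targets had few reads: COL1A1, COL4A1 and COL4A2 had at most 16 counts in any library and MMP2 had 0. PMEPA1, a feedback inhibitor that TGF-beta usually induces strongly, had at most 1 count in any library.

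BMP target genes, also without a call, were mostly above 0. Of 10 listed, 8 were tested, 7 higher and 1 lower, with a median of 0.090. That median was 0.036 without control replicate 2 and 0.053 without control replicate 1 (each 5 higher, 3 lower), 0.059 without overexpression replicate 1 (7 higher, 1 lower) and 0.20 without control replicate 3 (8 higher, 0 lower). Without both first libraries it was 0.021, with 5 higher and 3 lower. HAMP, the iron hormone hepcidin, was at 8.69, 6.34 and 5.00 CPM with overexpression and at 3.41, 5.69 and 5.50 CPM in controls (log2 fold change 0.45 ± 0.28, edgeR adjusted p 0.797). ID1 was at 593, 543 and 525 CPM against 391, 501 and 553 CPM, and ID2 at 121 to 136 against 119 to 125 CPM. The ID genes encode inhibitors of basic helix-loop-helix factors. As for the inhibitory SMADs, control replicate 1 held the lowest HAMP and ID1.

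**Figure D4:**
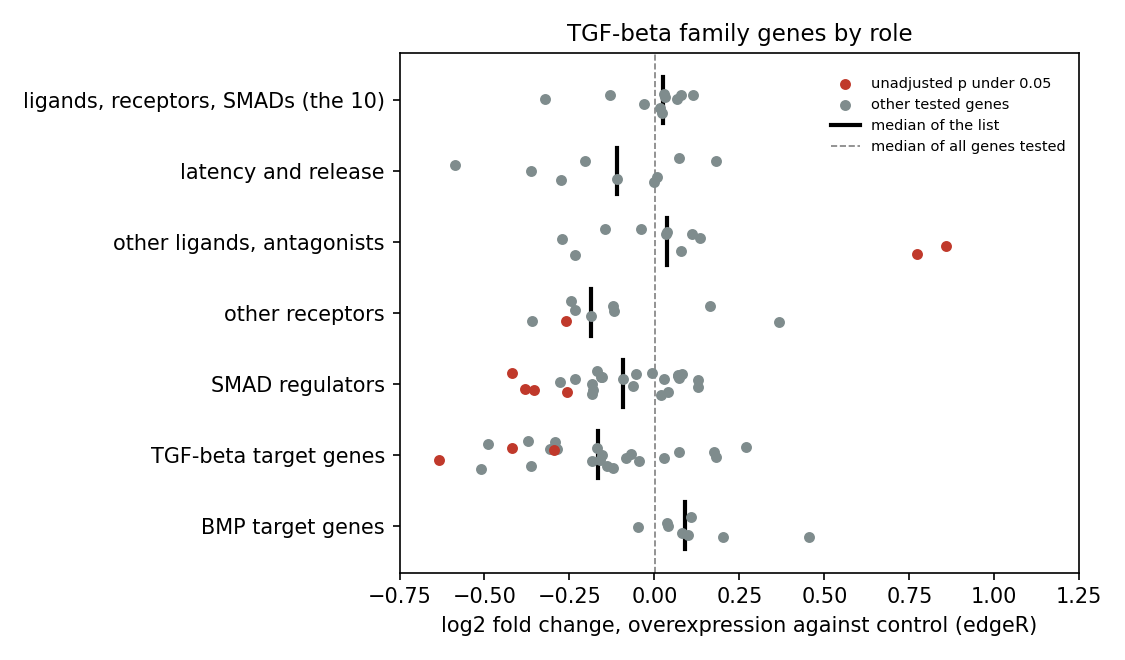
Log2 fold changes (horizontal axis, overexpression against control, edgeR) of the tested genes of each list, 1 point per gene, with a black bar at the median of the list and a dashed line at the median of all genes tested (0.0023). A gene that belongs to several lists has a point in each. Red points have an unadjusted p under 0.05, and 0 genes in the plot passed an adjusted p of 0.05. The points of the 10 core genes lie between -0.32 and 0.11, and 19 of the 24 target genes lie below 0.

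Likeness to the members was described over the 6 libraries by Pearson's r of log2 CPM among 81 other genes of the lists, for the 3 members with the smallest p values. These correlations are descriptions across libraries that share their scaling, and 6 points allow high values for many genes. TGFB2 was nearest to ACVR1B (r = 0.828) and NEDD4L (0.795), SMAD6 to BMP2 (0.814) and ID1 (0.721), and SMAD2 to PPM1A (0.955) and LTBP2 (0.873). PPM1A, a phosphatase that acts on SMAD2 and SMAD3, was at 43.5 CPM in overexpression replicate 2 and at 60.1 to 63.5 CPM in the other 5 libraries, the same library in which SMAD2 was low. LTBP2 had only 9 counts in overexpression replicate 2 and 13 to 31 in the other libraries. Among the members themselves, TGFBR1 and SMAD3 (r = 0.858) and SMAD6 and BAMBI (0.808) were the closest pairs.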

How the data were processed

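The authors deposited 1 table for the 6 libraries, holding raw read counts per gene beside their FPKM. The submitters' processing notes name TopHat2 2.0.9 and hg38, and the counter, strand setting and annotation release are not given in the sources used here. Gene IDs were matched to GENCODE 29 (GRCh38) for 98.5% of the 50868 rows, and 9 of the 10 members had the same coordinates there. The members and lists were chosen with earlier results of these data known.

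R 4.3.3 with edgeR 4.0.16 was used for the counts. Genes were kept by filterByExpr (minimum count 10), libraries were scaled by TMM, and the groups were compared by the two-sided quasi-likelihood F test, Benjamini-Hochberg adjusted over all 15055 genes. Intervals of fold changes are 95%, from standard errors derived from the F statistic. CPM used TMM-scaled totals, and permutation tests used log2(CPM + 0.5). The totals of 11130902 to 14138262 counts put the floor of 3 counts at 0.212 to 0.276 CPM, which covers counting error only. Chi-square values of 11.0 to 22.6 per degree of freedom showed that no library repeated another of its group. Named genes were all members and, per list, up to 3 tested genes with the smallest p, plus, for the 3 members with the smallest p, the 2 list genes with the highest correlation. One gene that this rule names is not reported here.

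The alternatives were RLE and upper-quartile scaling, DESeq2 1.42.0, other filters (at least 1 count in total, or a mean of 50), limma 3.58.1 with trend on log2(FPKM + 1) or log2(FPKM + 0.1) (genes at 1 FPKM in 3 libraries or more), the replicate number as a block, and fits without each library in turn. After the data were seen, a fit without both first libraries, one with overlapping same-strand genes summed, and the alternatives for list medians were added. The scripts were tested on simulated data.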

Additional observations from a re-analysis of the deposited data

How the results depend on the processing

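None of the 10 genes was called under any alternative run, by edgeR, DESeq2 or limma, and their median log2 fold change ran from 0.020 to 0.044 under other scalings, filters, tests and the replicate block, was 0.019 without both first libraries, and ran from -0.053 to 0.051 when 1 library was left out. Of 153 values of single genes under alternatives, 17 changed direction. With 1 library left out the log2 fold change ran from -0.054 to 0.20 for BAMBI, -0.27 to 0.099 for SMAD2, -0.093 to 0.044 for SMAD3, -0.053 to 0.10 for SMAD4, -0.00051 to 0.22 for SMAD7, -0.021 to 0.057 for TGFB1, -0.33 to 0.42 for TGFBR1 and -0.013 to 0.047 for TGFBR2. TGFB2 (-0.47 to -0.23) and SMAD6 (0.013 to 0.22) kept their sign in these fits, and TGFB2 without overexpression replicate 3 was the only value at an unadjusted p under 0.05. Without both first libraries, a fit chosen after the data were seen, BAMBI was at -0.086, SMAD3 at 0.013 and SMAD4 at -0.026. With a replicate block TGFBR1 was at -0.0018 with a standard error of 0.12, and 4 genes were called in all. Over all tested genes, same-numbered libraries did not deviate together (correlations -0.036, -0.023 and -0.031). A correlation over all genes cannot show whether the numbers pair the libraries for a few genes, such as TGFBR1. Over all genes edgeR called 6, DESeq2 called 28, and edgeR called 4 to 16 when 1 library was left out, with 16 without overexpression replicate 2 and 10 without overexpression replicate 3; the cause was not tested. Of 90 medians of the 6 lists under alternatives, 6 moved by more than the spread between libraries, all of them for the other receptors and the SMAD regulators.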

Other observations

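The 15 genes whose first library in both groups lay under 0.5 times every other library were looked up after the pattern of TGFBR1 was seen. Those at more than 10 CPM in the other libraries were TGFBR1, UBFD1, ABAT and ZNF664. UBFD1 was at 41.7 and 48.1 CPM in the first overexpression and control library and at 145 to 150 CPM in the other 4. ZNF664 was at 74.9 and 89.1 CPM against 213 to 231 CPM, and ABAT, an enzyme of GABA breakdown, at 8.48 and 15.5 CPM against 33.7 to 35.9 CPM. The same rule applied to replicates 2 and 3 found 3 and 9 genes. ACVR1B, a type I activin receptor, jumped between libraries without following the numbers: it was at 29.1, 31.8 and 90.2 CPM in overexpression replicates 1 to 3 and at 89.3, 34.1 and 70.2 CPM in control replicates 1 to 3.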
